A study of Mus musculus with 22 samples.

Results

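Chemokine receptors are the surface receptors by which dendritic cells sense the chemokine gradients that place them within lymphoid tissue. The 8 receptor genes described here, Ccr1, Ccr2, Ccr6, Ccr9, Cx3cr1, Cxcr3, Cxcr4 and Cxcr5, were taken by name from a count table of 34047 genes and the ATAC-seq windows at their loci were added. All 8 passed the filter on low counts in both tissues. RNA-seq covered classical dendritic cells (cDCs) of mouse spleen, with 3 libraries each of cDC1, T-bet+ cDC2 and T-bet- cDC2, and of mesenteric lymph nodes (MLN), with 3 libraries of cDC1 and 2 of each cDC2 subset. ATAC-seq, which reads out open chromatin by where a transposase can insert, covered the same 3 subsets of spleen with 2 libraries each, made from 50000 sorted cells.

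All groups came from untreated mice of 6 to 10 weeks, of both sexes, that carry the Tbx21RFP-cre reporter allele, so the cDC1 and T-bet- cDC2 groups carry the allele as well. The reporter marks cells by red fluorescent protein (RFP) made from the locus of T-bet, a T-box transcription factor. Cells were gated as negative for lineage markers that include the T cell markers CD3 and CD90, for the macrophage marker CD64 and for the monocyte marker Ly6C, and as positive for CD11c and MHC class II. cDC1s were then taken as XCR1+CD11b-, and cDC2s as CD11b+XCR1- with or without RFP. Each RNA library pooled the cells of a pair of mice, and the labels do not say which libraries shared a sort, so p-values measure the spread between these libraries. In such sorted pools, fewer cells that express a receptor and less receptor RNA per cell cannot be told apart.

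Chemokine receptors couple to inhibitory G proteins and turn a cell toward a rising chemokine concentration. In spleen and lymph nodes they help to place cDCs within the tissue, and they direct precursors out of bone marrow. Each receptor reads its own set of ligands. CCR2 binds CCL2 and CCL7, CX3CR1 binds the membrane-tethered CX3CL1, and CCR1 binds CCL3, CCL5 and related inflammatory chemokines. CCR6 binds CCL20, CCR9 binds the gut and thymus chemokine CCL25, CXCR3 binds the interferon-induced CXCL9 and CXCL10, CXCR4 binds CXCL12 and CXCR5 binds the follicular CXCL13.

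In mm10, by GENCODE M21, 5 of the 8 genes lie on chromosome 9, Ccr1 (ENSMUSG00000025804.5) at chr9:123962124-123968692 on the minus strand, Ccr2 (ENSMUSG00000049103.14) at chr9:124101950-124113557 on the plus strand, Ccr9 (ENSMUSG00000029530.16) at chr9:123678439-123784330 on the plus strand, Cx3cr1 (ENSMUSG00000052336.7) at chr9:119901616-120069879 on the minus strand and Cxcr5 (ENSMUSG00000047880.15) at chr9:44511787-44561877 on the minus strand. The other genes are Ccr6 (ENSMUSG00000040899.14) at chr17:8236043-8257141 on the plus strand, Cxcr3 (ENSMUSG00000050232.6) at chrX:101731535-101734269 on the minus strand and Cxcr4 (ENSMUSG00000045382.6) at chr1:128588199-128592293 on the minus strand.

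The sorted libraries carried the markers of their labels. Summed over 6 cDC1 markers, spleen cDC1 libraries held 5470 to 6340 CPM, against 61.9 to 507 CPM in the spleen cDC2 libraries. CPM is the count of a gene relative to the total of its library, scaled by the trimmed mean of M values (TMM). Tbx21, which encodes T-bet, was at 17.1 to 24.7 CPM in spleen T-bet+ cDC2s and 3.02 to 7.12 CPM in MLN T-bet+ cDC2s, and at most 2.35 CPM elsewhere. RNA libraries held 20993220 to 29006549 counts on genes and ATAC libraries 7270164 to 10081555 counts in windows. The spleen RNA libraries fell into classes by how their counts followed the GC content of transcripts, with Spearman correlations of 0.207 to 0.34 in 6 libraries and -0.405 to -0.178 in 3. In spleen the lower class held replicate 3 of cDC1 and replicates 1 and 2 of T-bet- cDC2, and none of the T-bet+ cDC2 libraries. The MLN libraries, with correlations of -0.315 to 0.044, were all in the lower class (0.1 or less). Values with this class as a term in the fit are given where they change a result.

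Cxcr4 was among the leading receptors of every spleen subset, and the subsets differed in the receptors beside it. Levels were set side by side per kilobase of exon, counting the exons of all GENCODE transcripts of a gene. A gene whose expressed transcript is shorter than that is set too low. The exons sum to 10260 bases for Ccr9, 6760 for Ccr2 and 1731 for Cxcr3, so ranks and shares between genes are rough. Spleen cDC1s held Cxcr3 at 47.3 ± 7.43 CPM per kb and Cxcr4 at 43.4 ± 6.16 CPM per kb (SD, n = 3), and the other 6 receptors at 6.61 CPM per kb or less. Spleen T-bet+ cDC2s held Cxcr4 at 50.8 ± 6.77 and Ccr6 at 24.8 ± 4.78 CPM per kb, with the other 6 at 2.27 CPM per kb or less. Spleen T-bet- cDC2s held 3 receptors at a high level, Cxcr4 at 102 ± 23.4, Cx3cr1 at 49.4 ± 12.7 and Ccr2 at 33.5 ± 16 CPM per kb. Of the summed level of the 8 receptors, Cxcr3 made up 45.8% in spleen cDC1s and 1.52% in T-bet+ cDC2s, Ccr6 was 29.7% of the T-bet+ and 3.97% of the T-bet- sum, and Cx3cr1 made up 24.3% and Ccr2 16.5% in T-bet- cDC2s. In MLN the leading receptor was Cxcr3 in cDC1s at 41.9 ± 30.9 CPM per kb (n = 3) and Ccr6 in T-bet+ cDC2s at 44.1 ± 14.8 CPM per kb (n = 2). In MLN T-bet- cDC2s Cxcr4, Cx3cr1 and Ccr2 lay at 44.1 ± 9.54, 39.5 ± 9.08 and 32.9 ± 3.34 CPM per kb, which did not differ beyond their spread.

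**Figure D1:**
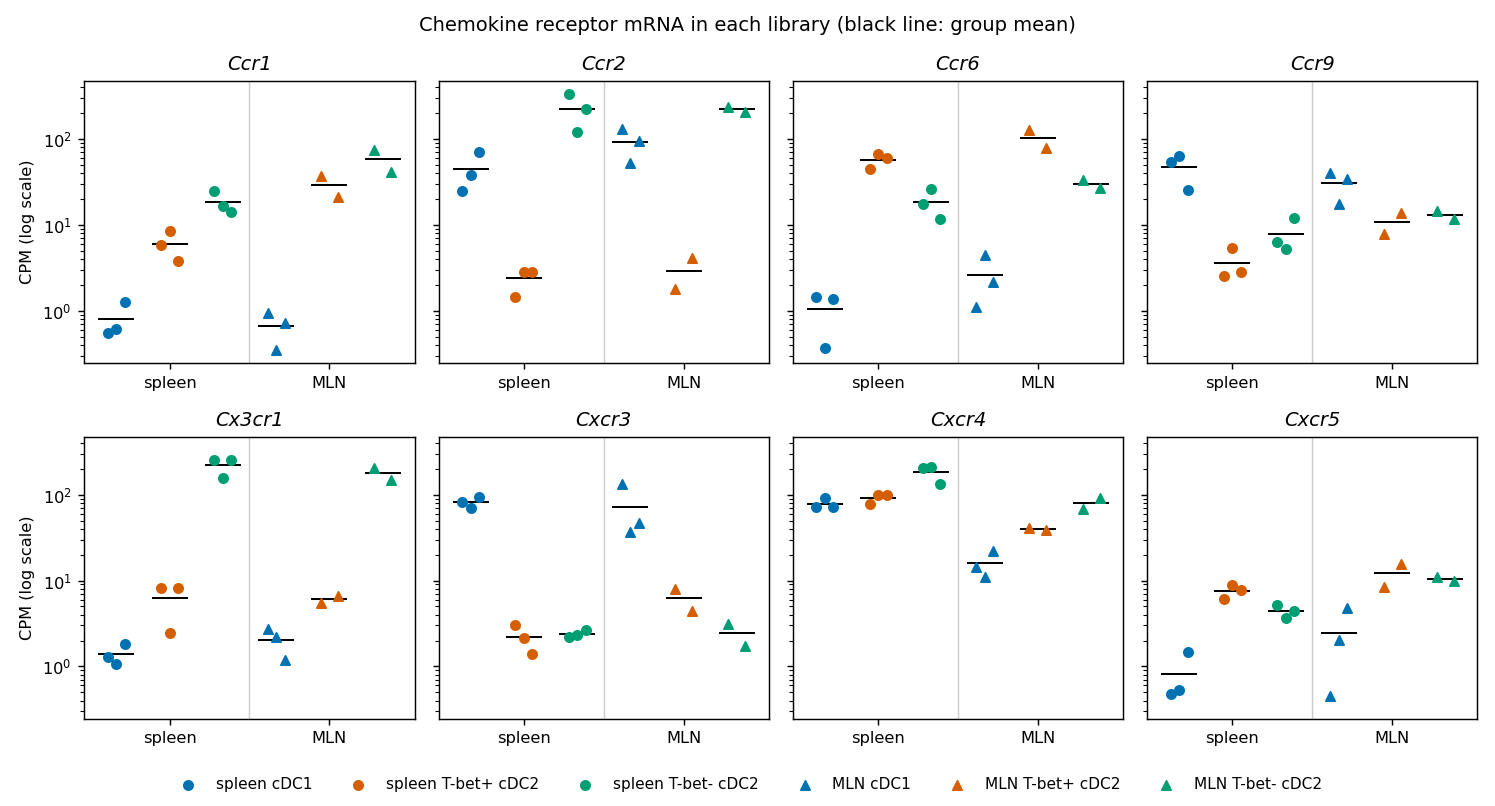
Each panel shows 1 receptor, with its CPM in each of the 16 RNA libraries on a log axis, spleen on the left and MLN on the right, and a black line at each group mean. Ccr2 and Cx3cr1 stand highest in T-bet- cDC2s of both tissues, Ccr6 in T-bet+ cDC2s and Cxcr3 in cDC1s, where the lowest library held 36.9 CPM and no cDC2 library exceeded 7.97 CPM.

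The comparison of T-bet+ with T-bet- cDC2s asks which receptors separate the cDC2 subsets. In spleen 3 of the 8 receptors passed the quasi-likelihood test of edgeR (adjusted p below 0.05), all with less RNA in T-bet+ cDC2s, where 5.38% of the 14377 genes tested passed. These were Ccr2, Cx3cr1 and Cxcr4. The ranges of the groups did not overlap for 6 receptors, against 27.0% of genes. The median log2 difference of the 8 receptors was -1.1, beside -0.013 for all genes tested. With DESeq2 5 receptors passed (4.47% of genes), adding Ccr1 and Ccr6. With the GC class as a term 4 passed (4.67% of genes), Ccr2, Cx3cr1, Ccr6 and Ccr9, and Cxcr4 did not.

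In MLN none of the 8 receptors passed in this comparison, and edgeR called 0.0% of the 15298 genes tested, with 1444 genes at an unadjusted p under 0.05. DESeq2 called 328 genes, 1.21% of those it tested, among them Ccr2 and Cx3cr1. The lowest adjusted p in edgeR was 0.057, shared by Ccr2 and Cx3cr1. With only the libraries of both cDC2 subsets in the fit, the same 2 receptors passed at an adjusted p of 0.044, where 14 genes did (0.0961%). The ranges of the groups did not overlap for 6 receptors, against 41.1% of genes. Side by side, the log2 differences in spleen and MLN were -6.57 and -6.29 for Ccr2, -5.15 and -4.92 for Cx3cr1, 1.61 and 1.72 for Ccr6, and -1.01 and -1.03 for Cxcr4. When the difference between tissues in this comparison was itself tested over all 16 libraries, no receptor passed in edgeR, where 1 gene did (0.00595% of 16795), 847 genes had an unadjusted p under 0.05, and DESeq2 called 39 genes (0.115%) and none of the receptors.

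Against cDC1s most of the receptors differed. In spleen 7 of 8 passed in T-bet+ cDC2s, 4 higher and 3 lower (18.2% of genes tested), and all 8 passed in T-bet- cDC2s, 6 higher and 2 lower (15.9%). In MLN 6 of 8 passed in T-bet+ cDC2s, 4 higher and 2 lower (6.22%), and 5 of 8 in T-bet- cDC2s, 4 higher and 1 lower (5.79%). Both comparisons within a tissue rest on the same 3 cDC1 libraries. The ranges did not overlap for 7 and 8 receptors in spleen (39.4% and 29.4% of genes) and for all 8 in both MLN comparisons (40.5% and 39.8%). DESeq2 called 7 and 8 receptors in spleen (10.5% and 9.16% of genes) and 8 and 6 in MLN (7.46% and 6.38%). Ccr1, Ccr6 and Cx3cr1 were higher, and Cxcr3 lower, in all 4 comparisons with cDC1s. Ccr2 took opposite directions in spleen, higher than cDC1s in T-bet- cDC2s and lower in T-bet+ cDC2s.

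**Figure D2:**
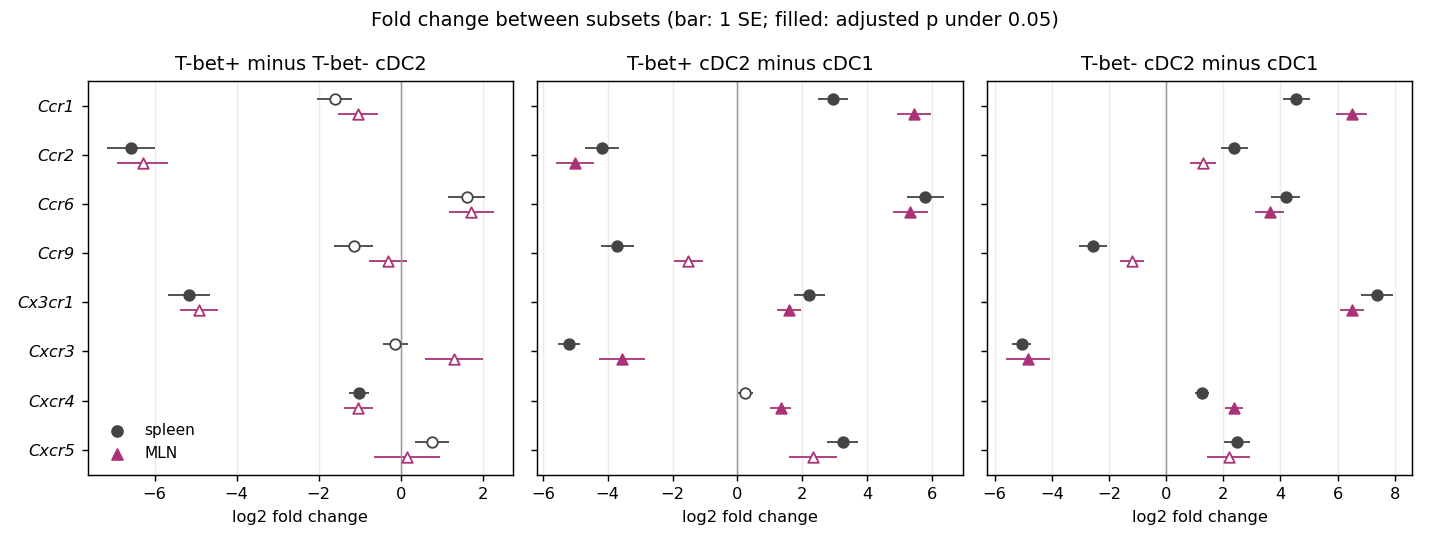
Log2 fold changes of the 8 receptors in 3 comparisons of subsets, for spleen (circles) and MLN (triangles), with bars of 1 standard error and filled symbols where the adjusted p was under 0.05. The MLN values of Ccr2 and Cx3cr1 in the left panel, at -6.29 and -4.92, sit beside the spleen values but are open symbols.

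Ccr2, the receptor that brings monocytes and pre-dendritic cells out of bone marrow, had the largest difference between the cDC2 subsets. Spleen T-bet- cDC2s held 337, 121 and 222 CPM, and spleen T-bet+ cDC2s held 1.45, 2.87 and 2.85 CPM. Every T-bet- library lay above every T-bet+ library, and the difference was 95.2-fold, or -6.57 in log2 (SE 0.59, adjusted p = 0.00038, edgeR). The spleen cDC1 libraries fell between the cDC2 groups, at 24.6, 38.5 and 70.8 CPM. T-bet+ cDC2s were below them at a log2 difference of -4.18 (SE 0.53, adjusted p = 0.00053, edgeR), and T-bet- cDC2s were above them by 2.39 (SE 0.48, adjusted p = 0.0081). In MLN the pattern of levels was similar, with 238 and 206 CPM in T-bet- cDC2s, 1.79 and 4.09 CPM in T-bet+ cDC2s, and 132, 52.8 and 95.8 CPM in cDC1s. The MLN groups did not overlap either, and T-bet+ cDC2s were lower than cDC1s at -5.0 (SE 0.58, adjusted p = 0.0037, edgeR). T-bet- cDC2s of MLN had a value of 1.29 against cDC1s (adjusted p = 0.15, edgeR), which did not pass. Ordered by mean over both tissues, the neighbouring groups with overlapping ranges were the T-bet- cDC2s of both tissues, at the top, the cDC1s of both tissues, and the T-bet+ cDC2s of both tissues, at the bottom.

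Cx3cr1, the fractalkine receptor of monocytes, macrophages and part of the cDC2s, was at 255, 156 and 257 CPM in spleen T-bet- cDC2s, at 8.25, 2.42 and 8.26 CPM in T-bet+ cDC2s and at 1.28, 1.06 and 1.82 CPM in cDC1s. The 3 spleen groups did not overlap in any pair. T-bet+ cDC2s were 35.4-fold below T-bet- cDC2s, at -5.15 (SE 0.51, adjusted p = 0.00063, edgeR), and T-bet- cDC2s were 165-fold above cDC1s, at 7.37 (SE 0.57, adjusted p = 2.8e-05). T-bet+ cDC2s were above cDC1s by 2.22 (SE 0.47, adjusted p = 0.0091, edgeR), a call that was lost without replicate 2 of cDC1, at 1.98 and an adjusted p of 0.054. In MLN the levels were 207 and 149 CPM in T-bet- cDC2s, 5.55 and 6.55 CPM in T-bet+ cDC2s and 2.70, 2.22 and 1.19 CPM in cDC1s. Here too no groups overlapped within the tissue, while each subset's range in MLN overlapped its range in spleen. The MLN difference of T-bet+ cDC2s from cDC1s, 1.58 (SE 0.37, adjusted p = 0.047, edgeR), lost its call without any of 6 of the 7 libraries, all but replicate 1 of cDC1, with adjusted p from 0.082 to 0.13, and under a replicate block (1.31, adjusted p = 0.087, edgeR). Its exons share 78 bases with the antisense Gm33858.

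Markers of monocytes and macrophages also differed among the subsets. Summed over 8 genes, they held 551 to 780 CPM in spleen T-bet- cDC2s, 370 to 437 CPM in T-bet+ cDC2s and 18.4 to 26.4 CPM in cDC1s, and in MLN 434 to 701, 221 to 363 and 12.6 to 23.2 CPM in the same order. The sum was lowest in cDC1s, whereas Ccr2 was lowest in T-bet+ cDC2s. Its highest genes in the cDC2 groups were Adgre1 and C1qa, and in MLN Adgre1 took the other direction, with a mean of 277 CPM in T-bet+ and 89.7 CPM in T-bet- cDC2s. Fcgr1, which encodes the CD64 that the gate excludes, was at 5.30 to 7.76 CPM in spleen T-bet- cDC2s and at most 0.821 CPM in the other spleen groups, and 3 of the 8 markers, Fcgr1, Mertk and Vcan, were under 1 CPM in every library of spleen T-bet+ cDC2s. Vcan was under 1 CPM in all 6 groups and Ly6c2 at most 3.98 CPM in the spleen cDC2 groups. The part of such cells in the Ccr2 and Cx3cr1 results was not tested.

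Ccr1, an inflammatory receptor shared by monocytes, neutrophils and dendritic cells, was a cDC2 transcript in these libraries. In spleen it was at 0.56, 0.614 and 1.26 CPM in cDC1s, 5.90, 8.57 and 3.76 CPM in T-bet+ cDC2s, and 24.7, 16.5 and 14.3 CPM in T-bet- cDC2s, with no overlap between groups. Against cDC1s the log2 difference was 2.95 in T-bet+ cDC2s (SE 0.45, adjusted p = 0.0017, edgeR) and 4.56 in T-bet- cDC2s (SE 0.48, adjusted p = 0.00019). Between the cDC2 subsets it was -1.61 (SE 0.42), and the adjusted p of 0.056 did not pass in edgeR, while DESeq2 gave 0.0046. Leaving out replicate 3 of cDC1 or replicate 3 of T-bet- cDC2 brought edgeR's adjusted p to 0.038 and 0.041. With the GC class as a term the difference shrank to -1.1 (adjusted p = 0.2, edgeR). Among libraries of the higher class alone, with 1 T-bet- library, it was -1.25. In MLN Ccr1 stood at 37.5 and 21 CPM in T-bet+ cDC2s and 75.1 and 41.9 CPM in T-bet- cDC2s, against 0.943, 0.348 and 0.72 CPM in cDC1s, log2 differences of 5.45 (SE 0.52, adjusted p = 0.0016, edgeR) and 6.49 (SE 0.54, adjusted p = 0.00086). Over both tissues the order ran from MLN T-bet- cDC2s through MLN T-bet+ and spleen T-bet- cDC2s, whose ranges overlapped, to spleen T-bet+ cDC2s and then the cDC1s.

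Ccr6 places cells near epithelium and B cell areas by way of CCL20. Spleen T-bet+ cDC2s held 45.5, 67.3 and 60.1 CPM and T-bet- cDC2s 17.6, 26.6 and 11.9 CPM, with 1.44, 0.368 and 1.37 CPM in cDC1s. All T-bet+ values lay above all T-bet- values, a 3.06-fold difference, 1.61 in log2 (SE 0.45), yet the adjusted p of 0.077 in edgeR did not pass. It passed in DESeq2 (adjusted p = 0.014), without cDC1 libraries in the fit (adjusted p = 0.035, edgeR), without replicate 2 of cDC1 alone (adjusted p = 0.041) and with the GC class as a term (2.17, adjusted p = 0.031). Both cDC2 subsets were above cDC1s, T-bet+ cDC2s by 5.80 (SE 0.56, adjusted p = 0.0001, edgeR) and T-bet- cDC2s by 4.18 (SE 0.52, adjusted p = 0.00055). MLN values were 127 and 78.1 CPM in T-bet+ cDC2s, 33.3 and 27.3 CPM in T-bet- cDC2s and 1.11, 4.48 and 2.19 CPM in cDC1s. T-bet+ cDC2s of MLN were again the highest group without overlap, at 1.72 against T-bet- cDC2s (SE 0.55, adjusted p = 0.39, edgeR), which did not pass, and at 5.34 against cDC1s (SE 0.54, adjusted p = 0.0021). The T-bet- cDC2s of MLN exceeded cDC1s by 3.62 (SE 0.51, adjusted p = 0.0078, edgeR), a call lost without replicate 1 or 2 of T-bet- cDC2, with adjusted p of 0.074 and 0.053. Over both tissues no neighbouring groups overlapped in the order MLN T-bet+, spleen T-bet+, MLN T-bet- and spleen T-bet- cDC2s, which was followed by the cDC1s.

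Cxcr5, which draws B cells and follicular helper T cells into follicles, stayed low throughout. It was at 6.18, 8.83 and 7.72 CPM in spleen T-bet+ cDC2s, 5.17, 3.68 and 4.48 CPM in T-bet- cDC2s and 0.48, 0.532 and 1.47 CPM in cDC1s. The groups did not overlap, and both cDC2 subsets were above cDC1s, by 3.25 (SE 0.47, adjusted p = 0.0012, edgeR) and 2.48 (SE 0.46, adjusted p = 0.0054). The difference between cDC2 subsets, 0.76 (SE 0.42, adjusted p = 0.38, edgeR), did not pass. In MLN the cDC1 libraries spread from 0.451 to 4.79 CPM, below 8.31 and 15.8 CPM in T-bet+ cDC2s and 11.1 and 9.99 CPM in T-bet- cDC2s, and no comparison passed in edgeR. The differences of T-bet+ and T-bet- cDC2s from MLN cDC1s, however, passed under a replicate block (3.4 and 3.4, adjusted p of 0.04 and 0.043), under a block by the number in the library name (3.18 and 2.03, adjusted p of 0.0052 and 0.021), without a filter on low counts (0.00045 and 0.0012) and in DESeq2 (0.017 and 0.035). Cxcr5 shares 110 exon bases with Bcl9l on the opposite strand, so its counts are uncertain by that overlap if strand was not used.

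Ccr9, the receptor that directs cells to small intestine and thymus, was highest in cDC1s. Spleen cDC1s held 53.6, 63.7 and 25.6 CPM, T-bet+ cDC2s 2.54, 5.37 and 2.85 CPM, and T-bet- cDC2s 6.30, 5.19 and 12.2 CPM. The cDC1 libraries lay above all cDC2 libraries, while the cDC2 groups overlapped. T-bet+ cDC2s were lower than cDC1s at a log2 difference of -3.71 (SE 0.51, adjusted p = 0.00094, edgeR), and T-bet- cDC2s at -2.56 (SE 0.49, adjusted p = 0.0063). The value between cDC2 subsets was -1.15 (adjusted p = 0.23, edgeR), and -1.83 (adjusted p = 0.017) with the GC class as a term. In MLN the cDC1 libraries held 40.6, 17.8 and 34 CPM, above 7.94 and 13.7 CPM in T-bet+ cDC2s and 14.5 and 11.6 CPM in T-bet- cDC2s, without a call in edgeR. Ccr9 is also a marker of plasmacytoid dendritic cells, whose other markers in spleen cDC1s were led by Tcf4 at 15.3 to 24 CPM, with Siglech at 0.68 to 1.57 CPM and Cox6a2 at most 0.123 CPM. Summed over the 6 markers other than Ccr9, they held 24 to 30.0 CPM in spleen cDC1s, 39.1 to 55 CPM in T-bet+ and 51.5 to 85.5 CPM in T-bet- cDC2s. Of these 6, Pacsin1 went with Ccr9, at 3.49 to 9.68 CPM in spleen cDC1s, 1.23 to 1.95 CPM in T-bet+ and 0.0474 to 0.112 CPM in T-bet- cDC2s. Tcf4, which made up most of the sum, went the other way, at 37.0 to 49.7 CPM in T-bet+ and 47.9 to 77.2 CPM in T-bet- cDC2s. The part of plasmacytoid cells in the Ccr9 results was not tested. The exons of Ccr9 share 1932 bases with AC165425.1 on the opposite strand, so its counts could include that gene.

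Cxcr3, the receptor for the interferon-induced chemokines CXCL9 and CXCL10 and a known target of T-bet in T cells, was a cDC1 transcript here. Spleen cDC1s held 81.5, 69.2 and 94.9 CPM. T-bet+ cDC2s held 3.01, 2.16 and 1.40 CPM, and T-bet- cDC2s 2.18, 2.32 and 2.65 CPM. The cDC1 values were far above both cDC2 groups, which overlapped. The log2 difference from cDC1s was -5.19 in T-bet+ cDC2s (SE 0.34, adjusted p = 1e-05, edgeR) and -5.06 in T-bet- cDC2s (SE 0.34, adjusted p = 1.2e-05). Between the cDC2 subsets it was -0.13 (SE 0.30, adjusted p = 0.85, edgeR). In MLN the cDC1s held 134, 36.9 and 46.7 CPM, T-bet+ cDC2s 7.97 and 4.45 CPM and T-bet- cDC2s 3.14 and 1.74 CPM, and both cDC2 subsets were lower than cDC1s, at -3.55 (SE 0.71, adjusted p = 0.026, edgeR) and -4.84 (SE 0.76, adjusted p = 0.012). Leaving out any cDC2 library of MLN took the call from the first of these (-4.04 to -3.15, adjusted p from 0.059 to 0.095), and leaving out a T-bet- library took it from the second (adjusted p of 0.1 and 0.11). Such a fit leaves 1 library in its group, which is assumed to vary like the libraries of the other groups.

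Cxcr4, which binds CXCL12 and retains cells in bone marrow and stromal niches, was the one receptor present at a high level in all 3 spleen subsets. The spleen libraries held 71.4, 91.4 and 72.8 CPM in cDC1s, 77.8, 98.4 and 99.5 CPM in T-bet+ cDC2s and 205, 212 and 135 CPM in T-bet- cDC2s. T-bet- cDC2s lay above the other groups, which overlapped. They were 2.40-fold above cDC1s, at 1.26 (SE 0.24, adjusted p = 0.0057, edgeR), and T-bet+ cDC2s were below T-bet- cDC2s at -1.01 (SE 0.24, adjusted p = 0.039). The latter call was lost with the GC class as a term (-0.86, adjusted p = 0.13, edgeR) and among libraries of the higher class alone (-0.57, adjusted p = 0.32), where the value against cDC1s also lost its call (0.75, adjusted p = 0.14). That class holds 1 T-bet- library, replicate 3, the lowest of its group, which is assumed there to vary like the other groups. It was lost as well without any of 6 of the 9 libraries, all but replicates 2 and 3 of cDC1 and replicate 3 of T-bet- cDC2, with adjusted p from 0.056 to 0.16. In MLN Cxcr4 was at 14.4, 11 and 22.3 CPM in cDC1s, 40.5 and 39.2 CPM in T-bet+ cDC2s and 67.6 and 92.0 CPM in T-bet- cDC2s, a non-overlapping order in which the cDC2 subsets exceeded cDC1s by 1.34 (SE 0.32, adjusted p = 0.048, edgeR) and 2.37 (SE 0.32, adjusted p = 0.0064). The first MLN call was lost without any library but replicate 3 of cDC1, with adjusted p from 0.077 to 0.19, and the second without replicate 2 of T-bet- cDC2 (2.16, adjusted p = 0.064).

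Between tissues, Cxcr4 was the receptor that differed in each subset in a fit of all 16 libraries. It was higher in spleen than in MLN in cDC1s by 2.29 on the log2 scale (SE 0.28, adjusted p = 0.00076, edgeR), the only receptor of 8 to pass there (11.7% of 16795 genes in edgeR, 10.3% in DESeq2, which called the same receptor). In T-bet+ cDC2s it was higher in spleen by 1.23 (SE 0.32, adjusted p = 0.041, edgeR) and Ccr1 was lower in spleen at -2.25 (SE 0.47, adjusted p = 0.016), 2 of 8 receptors (5.09% of genes). DESeq2 called these and also Ccr9 and Cxcr3 in T-bet+ cDC2s (7.95% of genes), and Cxcr4 and Ccr1 in T-bet- cDC2s (6.6%). The Cxcr4 level of T-bet- cDC2s was higher in spleen by 1.24 (SE 0.32, adjusted p = 0.035, edgeR), 1 of 8 receptors (5.94%), and Ccr1 stood at -1.63 (adjusted p = 0.051). The T-bet+ value of Ccr1 lost its call without replicate 1 or 3 of spleen T-bet+ cDC2 or either MLN T-bet+ library (adjusted p from 0.064 to 0.077), and with the GC class as a term (-1.52, adjusted p = 0.3). The Cxcr4 value in cDC1s kept its call without any library, while that in T-bet+ cDC2s lost it without any library of its own subset (adjusted p from 0.08 to 0.38), without either MLN T-bet- library (0.054) and with the GC class as a term (0.18). The value in T-bet- cDC2s lost its call without any T-bet- library but spleen replicate 3 (adjusted p from 0.078 to 0.33). Tissue and library preparation cannot be told apart from the labels. For T-bet+ cDC2s the spleen libraries were all of the higher GC class and the MLN libraries all of the lower. Class and tissue thus coincide there. Markers of mature migratory dendritic cells summed to 1520 to 4940 CPM over 6 genes in spleen libraries and 2940 to 15200 CPM in MLN libraries. Ccr7 led the sum in every group. In T-bet+ cDC2s the sums overlapped, at 4200 to 4840 CPM in spleen and 2940 to 11500 CPM in MLN. Mean Ccl22 there was 13.2 and 768 CPM and mean Cacnb3 101 and 845 CPM, while Il4i1, under 1 CPM, was lower in MLN. MLN T-bet- cDC2s summed to 12300 to 13500 CPM. The part of such cells in the tissue differences and in the MLN cDC2 comparison was not tested.

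Chromatin at the receptor loci was read from 163 summit windows of 150 bases whose peak lies closest to 1 of the 8 genes, of which 159 passed the filter on low counts. A window was called where the adjusted p was below 0.01 and the log2 difference exceeded 0.5 in size. Between T-bet+ and T-bet- cDC2s 14 windows were called, 10 more and 4 less accessible in T-bet+ cDC2s, where 6.28% of all 166547 windows were called. Against cDC1s 50 windows were called in T-bet+ cDC2s, 32 higher and 18 lower (23.0% of all windows), and 36 in T-bet- cDC2s, 19 higher and 17 lower (17.9%), both against the same cDC1 libraries. Windows of 1 locus lie close together and are not independent of each other. The gene bodies of Ccr9, Cx3cr1 and Cxcr5 run long in GENCODE and take in neighbouring genes. By RefSeq gene bodies, an alternative added after the values had been examined, 88 windows belonged to the receptors and 11, 26 and 19 were called.

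**Figure D3:**
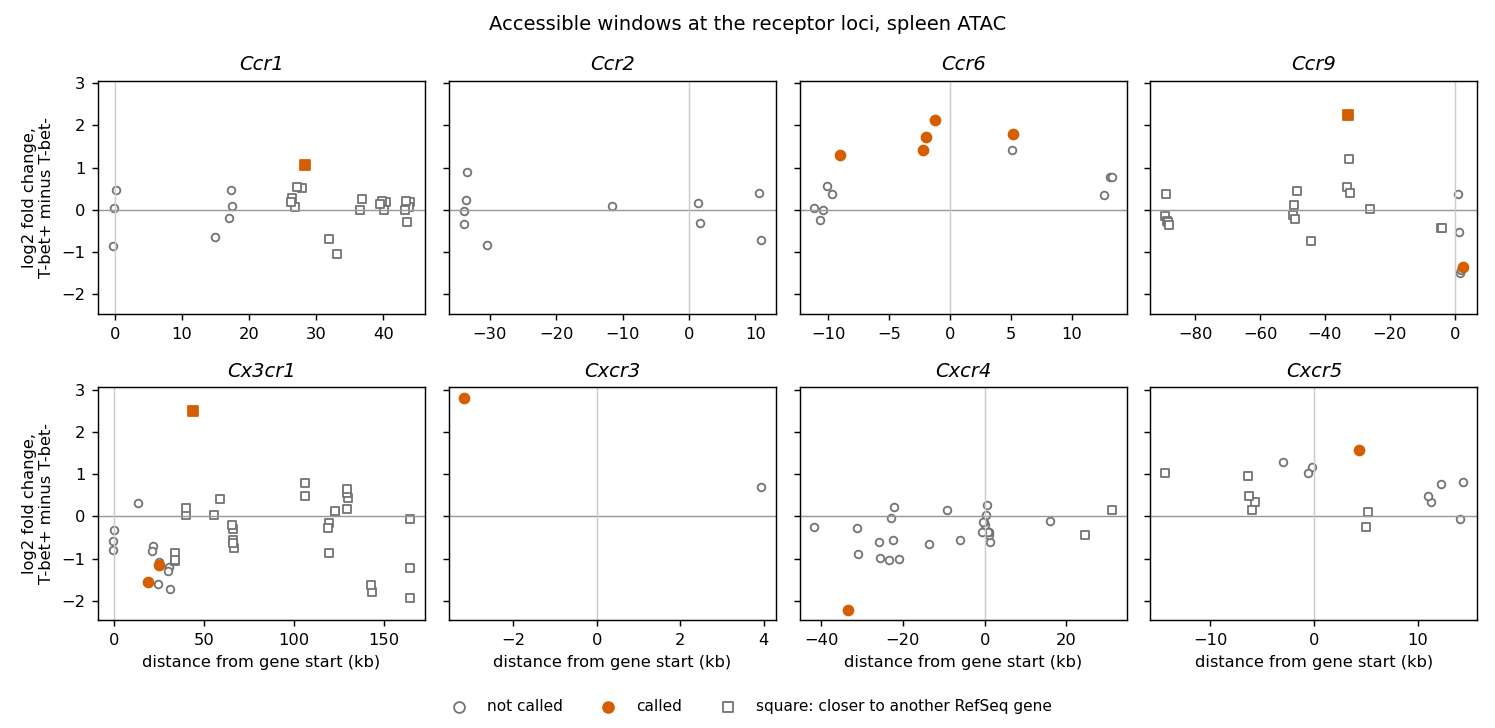
Each point is a tested window, placed by its distance in kb from the nearest start of the receptor gene (positive downstream) and by its log2 fold change between T-bet+ and T-bet- cDC2s of spleen. Filled points are called windows, squares are windows closer to another RefSeq gene, and the 5 called Ccr6 windows all lie above 0, while none of the Ccr2 windows is called.

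At Ccr6 5 of 14 windows were called between the cDC2 subsets (6.28% of all windows called), all more accessible in T-bet+ cDC2s. The window with the largest difference lies 1270 bases before the gene start (mm10, chromosome 17, outside the gene). Its libraries held 22.9 and 20.8 CPM in T-bet+ cDC2s, 5.74 and 4.31 CPM in T-bet- cDC2s and 27.1 and 29.4 CPM in cDC1s. T-bet- cDC2s stood apart from both other subsets, with a log2 difference of 2.13 between T-bet+ and T-bet- cDC2s (SE 0.23, adjusted p = 8.1e-11, edgeR) and -2.50 for T-bet- cDC2s against cDC1s (SE 0.23, adjusted p = 2.4e-14), while T-bet+ cDC2s and cDC1s differed by -0.37 (SE 0.20, adjusted p = 0.14). Ccr6 RNA was at most 1.44 CPM in cDC1s and at least 45.5 CPM in T-bet+ cDC2s, so that the order of the subsets differed between this window and the RNA. The other called windows lie at -9048, -2189, -1992 and 5156 bases, with differences of 1.31, 1.41, 1.73 and 1.79 between the cDC2 subsets (adjusted p of 0.0014, 1.3e-05, 2e-08 and 0.002, edgeR). Of the 14 windows, 5 were less and none was more accessible in T-bet- cDC2s than in cDC1s, whereas Ccr6 RNA was 18.2-fold higher in T-bet- cDC2s. T-bet+ cDC2s had 3 windows above and 2 below cDC1s, the largest in an intron 13108 bases downstream at 1.25 (SE 0.34, adjusted p = 0.0026, edgeR), a call lost without any of 3 of the 4 libraries of these groups, all but replicate 1 of T-bet+ cDC2 (adjusted p from 0.019 to 0.036). The sequence of the window at -1270 is given as it carries this contrast. The first promoter of Ccr6 (RefSeq, GRCm38.p6), from 250 bases before to 50 bases after the start, is given beside it and does not overlap the window. Both are read on the plus strand of the gene, with a match to a searched motif in capitals.
Ccr6 window chr17:8234698-8234847, plus strand: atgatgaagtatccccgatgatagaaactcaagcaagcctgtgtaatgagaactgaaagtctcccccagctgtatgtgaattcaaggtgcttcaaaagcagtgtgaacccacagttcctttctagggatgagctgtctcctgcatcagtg
Ccr6 promoter chr17:8235793-8236092, plus strand: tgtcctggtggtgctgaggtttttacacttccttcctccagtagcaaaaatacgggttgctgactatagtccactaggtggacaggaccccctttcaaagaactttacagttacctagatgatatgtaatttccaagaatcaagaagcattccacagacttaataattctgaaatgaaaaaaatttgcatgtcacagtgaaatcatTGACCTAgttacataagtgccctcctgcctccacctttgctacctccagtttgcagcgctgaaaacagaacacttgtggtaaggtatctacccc

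The capitals in the promoter mark TAGGTCA, the letters searched for ROR nuclear receptors, on the minus strand at bases 207 to 213. They occur in 2.61% of all 32851 RefSeq mouse promoters of this length. The window at -1270 held none of the 8 motifs searched.

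In the 3 comparisons 6.28%, 23.0% and 17.9% of all windows were called, but no window at Ccr2 was called. Of its 11 windows 10 were tested in the 3 comparisons, while its RNA differed 95.2-fold between the cDC2 subsets. The window nearest the start, 1283 bases downstream in an exon, held 2.05 and 3.0 CPM in T-bet+ cDC2s, 2.57 and 2.0 CPM in T-bet- cDC2s and 1.53 and 1.8 CPM in cDC1s. These ranges overlapped between the cDC2 subsets, with a difference of 0.16 (SE 0.41, adjusted p = 0.87, edgeR) that took the other sign when replicate 2 of T-bet+ or of T-bet- cDC2 was left out (-0.14 and -0.02). At these low levels a small difference was not detectable.

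At Cx3cr1 3 of 42 tested windows were called between the cDC2 subsets, near the share of 6.28% over all windows. The window 18729 bases downstream of the start (mm10, chromosome 9, 120049492 to 120049641, in an exon) held 11.6 and 12.2 CPM in T-bet- cDC2s, 5.19 and 2.90 CPM in T-bet+ cDC2s and 0.235 and 0.773 CPM in cDC1s. This order is that of the RNA, and the groups did not overlap. T-bet+ cDC2s were lower than T-bet- cDC2s at -1.56 (SE 0.30, adjusted p = 0.00012, edgeR), and T-bet- cDC2s were above cDC1s by 4.55 (SE 0.44, adjusted p = 1.8e-13). The first call was lost without replicate 2 of T-bet+ cDC2 (-1.2, adjusted p = 0.01). A second window at 24918 bases had a difference of -1.14 (adjusted p = 0.0051, edgeR). The third, 43854 bases downstream within the long GENCODE gene body but closer to another RefSeq gene, went the other way at 2.49 (SE 0.44, adjusted p = 2.7e-05). The window at the start itself, 69 bases downstream, lay at 9.65 to 16.6 CPM in all 6 libraries and was not called. Against cDC1s 11 windows were higher and 3 lower in T-bet+ cDC2s (23.0% of all windows called), and 9 were higher and 3 lower in T-bet- cDC2s (17.9%). By RefSeq gene bodies 4 and 5 of 13 tested windows were higher and none lower. The largest difference from cDC1s in the GENCODE gene body, at -5.63 in T-bet+ cDC2s (SE 0.56, adjusted p = 3.5e-13, edgeR), lies 164172 bases downstream, equally close to Wdr48.

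**Figure D4:**
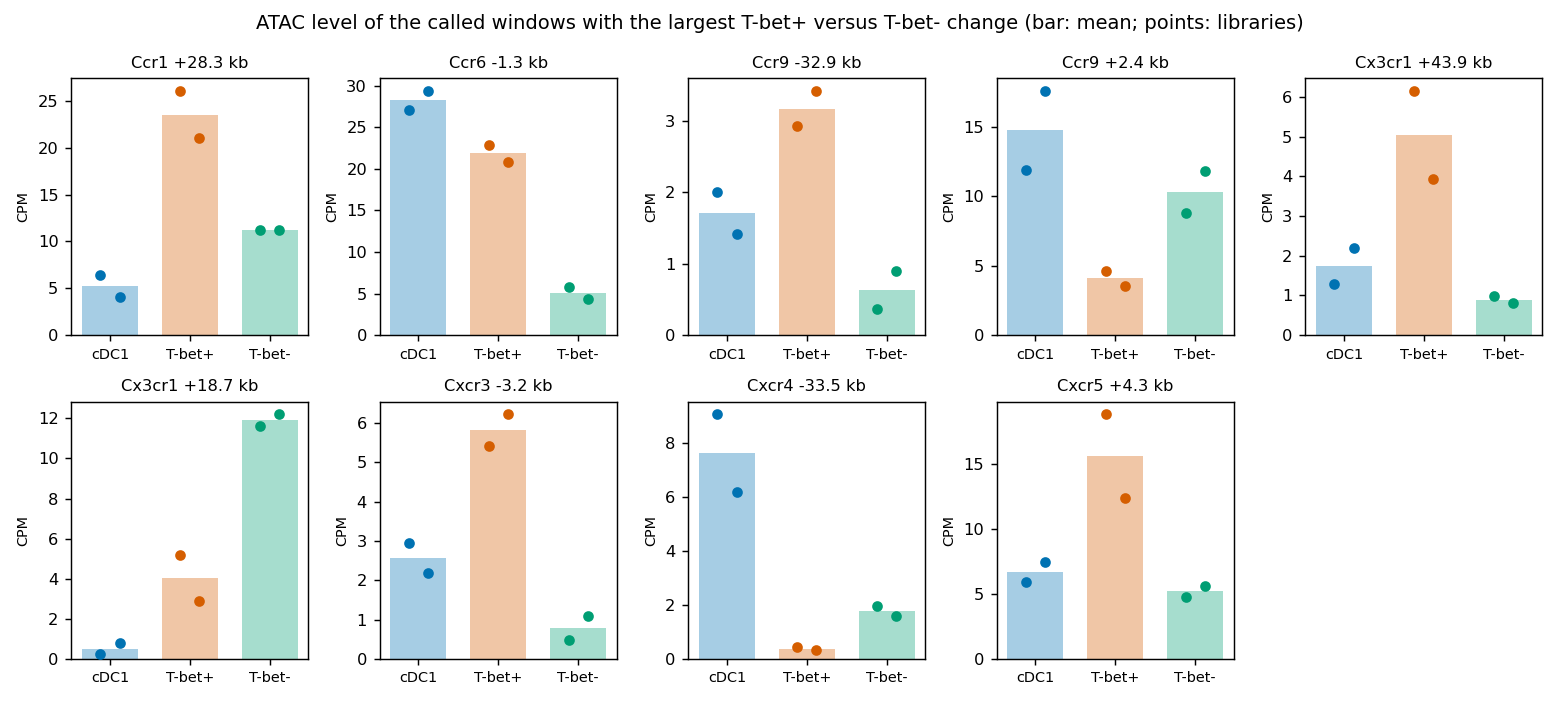
ATAC level in CPM of the 9 windows with the largest called difference between T-bet+ and T-bet- cDC2s in each direction at each locus, with bars at the mean of 2 libraries and points for the libraries. The Cxcr3 window is highest in T-bet+ cDC2s at 5.41 and 6.22 CPM, and the Cx3cr1 window at +18.7 kb is highest in T-bet- cDC2s at 11.6 and 12.2 CPM.

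At Cxcr3, a gene of chromosome X with only 2 windows, the window 3186 bases before the start had the largest called difference of the receptor windows between the cDC2 subsets. It held 5.41 and 6.22 CPM in T-bet+ cDC2s, 0.489 and 1.1 CPM in T-bet- cDC2s and 2.94 and 2.19 CPM in cDC1s. T-bet+ cDC2s stood above both other groups without overlap, by 2.80 over T-bet- cDC2s (SE 0.43, adjusted p = 1.5e-06, edgeR) and by 1.16 over cDC1s (SE 0.37, adjusted p = 0.0097). The call against cDC1s was lost without any library of those 2 groups (adjusted p from 0.016 to 0.12), under the replicate block (0.013), with library size scaling (0.034), without a filter on low counts (0.01) and in DESeq2 (0.081). T-bet- cDC2s were below cDC1s at -1.64 (SE 0.49, adjusted p = 0.0071, edgeR), a call lost without either cDC1 library or replicate 1 of T-bet- cDC2 (adjusted p from 0.013 to 0.13) and in DESeq2 (0.04). The order of this window, T-bet+ cDC2s over cDC1s over T-bet- cDC2s, was not the order of Cxcr3 RNA, which was at 81.9 ± 12.9 CPM in cDC1s and at 2.19 ± 0.803 and 2.38 ± 0.242 CPM in T-bet+ and T-bet- cDC2s (SD, n = 3). The window is printed because its accessibility and the RNA took different orders. The promoter, which does not overlap the window, is printed beside it. Both are read on the minus strand, the strand of the gene, with motif matches in capitals.
Cxcr3 window chrX:101737258-101737407, minus strand: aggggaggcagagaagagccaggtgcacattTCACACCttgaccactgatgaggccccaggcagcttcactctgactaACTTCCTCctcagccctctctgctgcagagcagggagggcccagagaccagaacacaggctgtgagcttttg
Cxcr3 promoter chrX:101734098-101734397, minus strand: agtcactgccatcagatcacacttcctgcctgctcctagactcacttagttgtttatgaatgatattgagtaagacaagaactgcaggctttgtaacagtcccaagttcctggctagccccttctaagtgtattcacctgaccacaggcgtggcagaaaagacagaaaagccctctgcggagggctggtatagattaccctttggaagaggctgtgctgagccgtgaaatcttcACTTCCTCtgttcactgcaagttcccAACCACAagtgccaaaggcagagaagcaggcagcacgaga

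In the window TCACACC, the letters searched for T-box factors such as T-bet, lie at bases 32 to 38, and GAGGAAGT, searched for PU.1, at bases 79 to 86 on the other strand. TCACACC was found in 2.4% of all 177956 windows and in 6 of the 163 receptor windows (3.68%), and GAGGAAGT in 5.5% and in 11 (6.75%). The promoter held GAGGAAGT at bases 235 to 242 and TGTGGTT, searched for Runx factors, at bases 261 to 267, both on the strand opposite to the one printed. These letters occur in 3.2% and 5.27% of promoters. A match is a description of the letters and does not show binding.

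At Cxcr5 1 of 16 windows was called between the cDC2 subsets. Against cDC1s, 10 were called higher and none lower in T-bet+ cDC2s (23.0% of all windows called) and 3 higher in T-bet- cDC2s (17.9%), and by RefSeq gene bodies 6 and none of 9. The called window, in an intron 4329 bases downstream of the nearest start, held 18.8 and 12.4 CPM in T-bet+ cDC2s, 4.77 and 5.61 CPM in T-bet- cDC2s and 5.88 and 7.47 CPM in cDC1s. T-bet+ cDC2s were above both other groups, by 1.58 over T-bet- cDC2s (SE 0.26, adjusted p = 8e-06, edgeR) and 1.22 over cDC1s (SE 0.26, adjusted p = 0.0001). The window 203 bases before the start, within an intron of the longer GENCODE transcripts, held 6.27 and 7.05 CPM in T-bet+ cDC2s, 2.69 and 3.21 CPM in T-bet- cDC2s and 1.29 and 2.71 CPM in cDC1s. Its difference from cDC1s was 1.74 (SE 0.37, adjusted p = 0.00011, edgeR), lost without replicate 1 of cDC1 (1.3, adjusted p = 0.024), and that between the cDC2 subsets, 1.16 (SE 0.34, adjusted p = 0.015), missed the threshold of 0.01. The largest change from cDC1s was 2.25 in T-bet+ cDC2s, 581 bases before the start (SE 0.55, adjusted p = 0.00075, edgeR), lost without replicate 1 of cDC1 (1.78, adjusted p = 0.039). Both windows are printed on the minus strand, the strand of the gene, the first for its difference between cDC2 subsets and the second for its place at the start.
Cxcr5 window chr9:44522017-44522166, minus strand: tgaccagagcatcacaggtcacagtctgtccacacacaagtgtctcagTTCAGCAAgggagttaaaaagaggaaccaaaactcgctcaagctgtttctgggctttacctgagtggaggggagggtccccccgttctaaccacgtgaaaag
Cxcr5 window chr9:44526710-44526859, minus strand: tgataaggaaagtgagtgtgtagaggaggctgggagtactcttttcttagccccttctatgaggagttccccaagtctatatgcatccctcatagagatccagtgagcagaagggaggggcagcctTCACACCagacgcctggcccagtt

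The capitals in the first mark TTGCNNAA, the letters searched for C/EBP factors and found in 5.89% of all windows, at bases 49 to 56 on the other strand. Those in the second mark the T-box letters TCACACC at bases 127 to 133.

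At Ccr9 2 of 22 windows were called between the cDC2 subsets (6.28% of all windows called). The window 2404 bases downstream of the RefSeq start, in an exon and equally close to AC165425.1, held 11.9 and 17.6 CPM in cDC1s, 8.80 and 11.8 CPM in T-bet- cDC2s and 4.65 and 3.52 CPM in T-bet+ cDC2s. T-bet+ cDC2s were the lowest group, at -1.34 against T-bet- cDC2s (SE 0.28, adjusted p = 0.00032, edgeR) and -1.85 against cDC1s (SE 0.27, adjusted p = 6.9e-08). The first call was lost without replicate 2 of T-bet- cDC2 (-1.11, adjusted p = 0.029). A window at 1709 bases held 4.59 and 6.05 CPM in cDC1s, 0.757 and 0.414 CPM in T-bet+ cDC2s and 1.59 and 1.70 CPM in T-bet- cDC2s, with both cDC2 subsets below cDC1s, at -3.16 (SE 0.47, adjusted p = 9.1e-08, edgeR) and -1.68 (SE 0.40, adjusted p = 0.00071). cDC1s held the highest values in both windows, as they did in Ccr9 RNA. The second called window, 32870 bases before the start and closer to another RefSeq gene, stood higher in T-bet+ cDC2s, by 2.25 (SE 0.50, adjusted p = 0.00088, edgeR), lost without replicate 1 of T-bet- cDC2 (1.8, adjusted p = 0.039). Against cDC1s, 1 window was higher and 5 lower in T-bet+ cDC2s (23.0% of all windows called), and 1 was higher and 4 lower in T-bet- cDC2s (17.9%). By RefSeq gene bodies 3 and 1 of 5 tested windows were lower and none higher. The window at 2404 bases is printed on the strand of the gene.
Ccr9 window chr9:123769540-123769689, plus strand: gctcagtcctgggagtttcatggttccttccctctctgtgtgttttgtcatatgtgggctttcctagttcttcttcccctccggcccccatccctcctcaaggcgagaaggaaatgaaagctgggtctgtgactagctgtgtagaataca

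That Ccr9 sequence is given because it lies in the gene and followed the order of the RNA between cDC1s and T-bet+ cDC2s, and it held no match to the 8 motifs.

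At Cxcr4 1 of 27 tested windows was called between the cDC2 subsets (6.28% of all windows called), lying 33512 bases before the start. It held 9.06 and 6.18 CPM in cDC1s, 0.433 and 0.311 CPM in T-bet+ cDC2s and 1.96 and 1.60 CPM in T-bet- cDC2s. The groups did not overlap, and both cDC2 subsets were below cDC1s, at -4.32 (SE 0.48, adjusted p = 1.9e-11, edgeR) and -2.11 (SE 0.38, adjusted p = 7e-06), while Cxcr4 RNA was not lower in either. The difference between the cDC2 subsets, -2.21 (SE 0.58, adjusted p = 0.0059, edgeR), was lost without any cDC2 library (adjusted p from 0.015 to 0.054) and in DESeq2 (0.033). The window nearest the start held 16.4 to 27.6 CPM in all 6 libraries and was not called in any comparison. Against cDC1s, T-bet+ cDC2s had 6 windows lower and none higher (23.0% of all windows called), and T-bet- cDC2s had 4 higher and 3 lower (17.9%). The distal window is printed as the strongest chromatin contrast at this locus, on the minus strand, and held none of the 8 motifs.
Cxcr4 window chr1:128625736-128625885, minus strand: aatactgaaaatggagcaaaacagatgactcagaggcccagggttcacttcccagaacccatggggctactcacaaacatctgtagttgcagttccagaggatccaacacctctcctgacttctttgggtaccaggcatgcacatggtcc

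At Ccr1 1 of 26 tested windows was called between the cDC2 subsets (6.28% of all windows called), 28348 bases downstream and closer to another RefSeq gene. It held 26.1 and 21 CPM in T-bet+ cDC2s, 11.2 CPM in both T-bet- libraries and 6.47 and 4.12 CPM in cDC1s, with a difference of 1.06 between cDC2 subsets (SE 0.22, adjusted p = 0.00033, edgeR). That call was lost without replicate 1 of T-bet+ or replicate 2 of T-bet- cDC2 (adjusted p of 0.01 in each). T-bet+ cDC2s were highest in this window, while each spleen T-bet- library held more Ccr1 RNA than each T-bet+ library. Against cDC1s 6 windows were higher and 2 lower in T-bet+ cDC2s (23.0% of all windows called), and T-bet- cDC2s had 2 higher and 1 lower (17.9%). By RefSeq gene bodies 1 of 7 tested windows was lower in T-bet+ cDC2s and none was called in T-bet- cDC2s. A window 33135 bases downstream, also closer to another RefSeq gene, held 5.29 and 6.96 CPM in cDC1s and at most 1.34 CPM in the cDC2 libraries, with differences of -3.65 (SE 0.49, adjusted p = 6.6e-09, edgeR) and -2.6 (SE 0.44, adjusted p = 2.4e-06). The window at the Ccr1 start held 6.70 to 12.8 CPM in all 6 libraries and was not called.

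Of 17 further receptors of the family, 10 were tested in spleen. Beside cDC1s, 3 of them were higher and 1 was lower in T-bet+ cDC2s, a comparison that called 18.2% of all genes. The same counts for T-bet- cDC2s were 6 and 1, where 15.9% of all genes passed. Among the higher ones Ackr1, Cmklr1 and Cxcr2 were near the floor. Their means were 1.56, 0.886 and 1.59 CPM in T-bet- cDC2s and 0.0, 0.0169 and 0.111 CPM in cDC1s. Ackr1 was also among those higher in T-bet+ cDC2s, with a mean of 3.4 CPM there. Against cDC1s, Ccr7, the receptor that guides mature dendritic cells to the T cell zone, was higher in both cDC2 subsets, by 1.24 (SE 0.22, adjusted p = 0.0041, edgeR) and 1.25 (SE 0.22, adjusted p = 0.0047). Ccrl2, a receptor that presents chemerin without signalling, was higher by 3.37 (SE 0.26, adjusted p = 2.8e-05, edgeR) and 3.05 (SE 0.26, adjusted p = 4.9e-05). Xcr1, by which the cDC1s were sorted, was lower in both. In MLN Ccrl2 and Xcr1 were the 2 of 10 tested receptors that passed in each comparison with cDC1s. The T-bet+ comparison called 6.22% of all genes, and the T-bet- comparison 5.79%. None of the 10 passed between the MLN cDC2 subsets, where edgeR called no gene, so this does not set the receptors apart.

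The chemokines are the ligands of these receptors and their relatives. Of 17 ligand genes 13 were tested in spleen, and T-bet+ cDC2s had 2 higher and 5 lower compared with T-bet- cDC2s, with a median log2 difference of -1.6 (5.38% of all genes passed). In MLN none of 16 tested passed, and 0.0% of all genes did. The higher ones in spleen were Ccl3 and Ccl4. Ccl9, a CCR1 ligand, was at 21.7 to 29.4 CPM in T-bet+ and 345 to 446 CPM in T-bet- cDC2s (-4.0, SE 0.26, adjusted p = 7.1e-05, edgeR). Ccl2, the main CCR2 ligand, was at 0.156 to 0.578 and 2.43 to 7.61 CPM (-3.92, SE 0.58, adjusted p = 0.0049, edgeR), and Ccl6 differed by -2.74 (SE 0.22, adjusted p = 0.00024). Cxcl9, a CXCR3 ligand, was highest in cDC1s at 331 to 464 CPM, with 4.18 to 7.30 CPM in T-bet+ and 47.4 to 57.4 CPM in T-bet- cDC2s (-3.30, SE 0.27, adjusted p = 0.00024, edgeR). These are spleen values. In MLN the log2 differences between the cDC2 subsets were -0.91 for Ccl9, -2.57 for Ccl2, -0.06 for Ccl6 and -2.14 for Cxcl9. The Ccl6 difference was thus near 0 in MLN, with means of 90.5 CPM in T-bet+ and 92.6 CPM in T-bet- cDC2s. Of 30 genes that transmit or end receptor signals, 26 were tested in spleen, and T-bet+ cDC2s had 2 higher and 2 lower compared with T-bet- cDC2s, with a median log2 difference of 0.34, against the same 5.38% of all genes. In MLN none of 27 tested passed, where no gene did. In spleen Rgs3 and Rac2 were higher, by 2.29 (SE 0.48, adjusted p = 0.026, edgeR) and 0.87 (SE 0.21, adjusted p = 0.041). Arrb1, a beta-arrestin that internalizes receptors, and Rgs10 were lower there, at -2.01 (SE 0.39, adjusted p = 0.019, edgeR) and -1.04 (SE 0.25, adjusted p = 0.045). The MLN log2 differences were 0.47 for Rgs3, 0.89 for Rac2, -1.08 for Arrb1 and -0.62 for Rgs10.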

How the data were processed

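The authors aligned SMART-Seq RNA reads to mm10 with HISAT2 and deposited counts of uniquely mapped reads per gene of GENCODE vM17, made with Rsubread (strand setting not given in the sources used here). ATAC reads were aligned with Bowtie2 and shifted for the transposase, peaks were called by MACS2 on all libraries together, and the authors deposited counts in 150-base windows around summits with peak positions, which in the deposited BED files are coordinates. The submitters' processing notes name HISAT2 2.1.0, Bowtie2 2.2.5 and SAMtools 1.9. Samples were grouped by their labels. The study's methods give the RFP gates of the cDC2 subsets the other way round, and the labels were followed. No column belonged to other samples.

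Genes and windows passing filterByExpr were fitted with the quasi-likelihood model of edgeR 4.0.16 (R 4.3.3) with TMM scaling, over all 9 spleen, 7 MLN, 16 RNA or 6 ATAC libraries, with Benjamini-Hochberg adjustment over all features. The script was tested on simulated data. DESeq2 1.42.0, other scalings and filters, a replicate block, a GC class term and leaving out libraries were alternatives. CPM values were scaled over the 16 RNA libraries. Windows belonged to the gene body closest to their peak, up to 50000 bases away, in GENCODE M21, and ties counted for each gene. Distances run from the nearest RefSeq start, or for Cxcr5 from the nearest protein-coding GENCODE start. Same-numbered libraries had correlations of their deviations from -0.41 to 0.13 in spleen and -0.08 to 0.38 in MLN. By the number in the library name, which for MLN T-bet- cDC2s is 2 and 3 where the labels give replicates 1 and 2, those of MLN ran from 0.03 to 0.38, so the numbers were not taken to pair samples. The receptors, the gene lists and the tests were chosen with earlier results of these data known. All 8 receptors were named in each comparison, other receptors where called in spleen (1 result is not reported here), the 4 ligands and signalling genes of largest called change between spleen cDC2 subsets, the 3 genes most like each receptor in level over 16 libraries, and the windows with the largest called change or nearest the start.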

Additional observations from a re-analysis of the deposited data

How the results depend on the processing

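Across 222 alternative counts of called receptors or windows, 170 stayed within 1.5 times the value reported and 52 moved past it. Of the called receptor values, 540 alternatives gave no change of sign, and 57 lost the call. Without 1 library at a time, the number of receptors called ran from 2 to 4 between spleen cDC2 subsets, 6 to 7 and 8 to 8 for spleen T-bet+ and T-bet- cDC2s against cDC1s, 0 to 1 between MLN cDC2 subsets, and 3 to 5 and 2 to 5 for MLN T-bet+ and T-bet- cDC2s against cDC1s. Between tissues it ran from 1 to 3 in cDC1s, 0 to 3 in T-bet+ cDC2s, 0 to 2 in T-bet- cDC2s and 0 to 0 for the difference in the cDC2 comparison. Called windows ran from 9 to 15 between cDC2 subsets, 27 to 52 for T-bet+ cDC2s against cDC1s and 18 to 42 for T-bet- cDC2s. Between spleen cDC2 subsets DESeq2 called 5 receptors and no filter on low counts 5. Between MLN cDC2 subsets DESeq2 called 2, no filter 3, a block by the number in the library name 2, a filter of 10 counts 2, and a fit of only the compared subsets 2. Only the compared subsets gave 3 for MLN T-bet+ cDC2s against cDC1s, and no filter gave 8 for MLN T-bet- cDC2s against cDC1s. Between tissues no filter called 4 in cDC1s, DESeq2 4 and no filter 4 in T-bet+ cDC2s, where the GC class term gave 1 (Ccr9), and in T-bet- cDC2s DESeq2 and no filter gave 2 each. DESeq2 called 29 windows and RefSeq gene bodies, chosen after seeing the data, 26 for T-bet+ cDC2s against cDC1s, and 21 and 19 for T-bet- cDC2s. The causes were not tested.

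With the replicate block, spleen T-bet+ against T-bet- cDC2s kept 2 called receptors, Ccr2 and Cx3cr1, since Cxcr4 had -0.99 and an adjusted p of 0.094 in edgeR. The block gave 7 and 8 in the other spleen comparisons, 0, 6 and 6 in MLN, where against cDC1s T-bet+ cDC2s lost Cx3cr1 (1.31, adjusted p = 0.087) and gained Cxcr5 (3.4, adjusted p = 0.04), between tissues 1 in cDC1s, 1 in T-bet+ cDC2s (Ccr1) and 0 for T-bet- cDC2s, and 14, 46 and 33 windows. The labels do not say that a number marks a shared mouse or day. Over all genes the count between spleen cDC2 subsets was 774, 1425 with DESeq2, 1521 without a filter and 356 with the block. Between MLN cDC2 subsets it was 0, and 130 with a block by the number in the library name. Leaving out an MLN cDC2 library leaves 1 in its group, which is assumed to vary like the other groups.

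None of the values that changed sign was called. Without 1 library at a time, Cxcr3 between spleen cDC2 subsets ran from -0.43 to 0.11 (positive without T-bet+ replicate 3). Between MLN cDC2 subsets Ccr9 ran from -0.7 to 0.06 (positive without T-bet+ replicate 1) and Cxcr5 from -0.33 to 0.58 (negative without T-bet+ replicate 2), with -0.01 under the block. Ccr1 in cDC1s between tissues ran from -0.18 to 0.6, negative at -0.18 and -0.07 without spleen replicate 3 or MLN replicate 2. For the window nearest each start, the values between cDC2 subsets ran from -0.09 to 0.17 at Ccr1 (-0.05 with library size scaling), -0.14 to 0.4 at Ccr2, -0.87 to 1.06 at Ccr9 and -0.45 to 0.06 at Cxcr4. Those of T-bet+ cDC2s against cDC1s ran from -0.07 to 0.81 at Ccr1, -1.73 to 0.2 at Ccr9 and -0.21 to 0.31 at Cxcr4 (-0.16 with library size scaling), and those of T-bet- cDC2s against cDC1s from -0.11 to 0.77 at Ccr1 and -0.03 to 0.52 at Cxcr4. Ccr6 in spleen and Ccr1 in MLN could not be fitted under the filter of 10 counts. Receptors under about 3 CPM, such as Cxcr3 in cDC2s, have few counts, which limits small differences.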

Other observations

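Over the 16 RNA libraries, the genes whose levels followed a receptor most closely (Pearson r of log2 CPM, searched over the 11091 genes that averaged 50 normalized counts or more) are given as a description. Libraries of 1 group share subset and tissue. Cxcr3 was followed by Plekha5 (0.9807), Cyp8b1 (0.9783) and Btla (0.972), and Ccr9 by Pde1b (0.9408), Gcsam (0.9311) and Clnk (0.9247). Btla, an inhibitory receptor, was at 628 ± 204 CPM in spleen cDC1s (SD, n = 3). Cx3cr1 was followed by Fcgr1 (0.9653), Mgl2 (0.9549) and Sepp1 (0.9506), of which Fcgr1 encodes the CD64 that the gate excludes and Mgl2 a C-type lectin of macrophages and cDC2s. Ccr2 had lower values, led by Pisd (0.915), Accs (0.9133) and Ifnar1 (0.9098).

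Ccr6 was followed by Tctex1d2 (0.9668), Tec (0.9646) and Ifit3 (0.9587), and Cxcr5 by Hebp1 (0.9562), Tec (0.9517) and Pira1 (0.9392), so that the kinase gene Tec was near both. Cxcr4 was followed by Ptafr (0.9646), the receptor for platelet-activating factor, Mefv (0.9473) and Hpgd (0.9378), and Ccr1 by Mir99ahg (0.9738), RP23-32C18.5 (0.9487) and Knop1 (0.9441). Among the receptors themselves Ccr6 and Cxcr5 had an r of 0.891 and Ccr9 and Cxcr3 of 0.852, while Ccr6 and Cxcr3 had -0.868. Ccr2 and Cx3cr1, both highest in T-bet- cDC2s, had 0.482, with cDC1s holding Ccr2 at 44.7 CPM in spleen and Cx3cr1 at 1.39 CPM.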
